A study of Mus musculus with 9 samples.

Results

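The genes described here encode lipases, the enzymes that release fatty acids from stored or circulating fat, and were followed across the reproductive cycle in adipose stromal cells (ASCs) of the mouse mammary gland. The group comprises the secreted lipases Lipg, Lpl and Lipc, the lysosomal lipase Lipa, the cytosolic lipases Lipe, Pnpla2 and Mgll, the patatin-like relatives Pnpla3 and Pnpla8, and Abhd5, which switches Pnpla2 on. A gene was taken as measured when the array annotation tied a probe set to its symbol alone. This held for 9 of the 10 genes, each with 1 probe set, of 19930 genes in all, whereas no probe set was listed for Lipc alone and it is named only. The genes were chosen by their role in lipid hydrolysis and by the stage contrasts of these same arrays, in which Lipg stood out, so that the stage differences of these 9 genes are given as a description and without a test.

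Lipases work in different places. Lipg and Lpl are secreted and bind the vessel wall, where Lpl clears triglyceride from circulating lipoproteins and Lipg acts mainly on the phospholipids of high density lipoproteins. Within fat-storing cells, Pnpla2 removes the first fatty acid from a triglyceride, Lipe the next and Mgll the last, a cascade known as lipolysis, while Lipa digests lipids that reach the lysosome. In the mammary gland the adipocytes give up lipid as the epithelium expands, lipoprotein lipase supplies fatty acids for milk fat, and the fat pad refills during involution.

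The study asked what sets ASCs of the lactating gland apart from those of other stages, with 3 arrays per stage. All mice were female Balb/c mice, and stroma of the mammary fat was freed by collagenase and hyaluronidase in each case. ASC-Ns came from nulliparous mice at 8 weeks of age that had been kept from males, ASC-Ls from bred mice at day 5 of lactation, and ASC-Is from bred mice at day 3 of involution, the stage after nursing ends in which the epithelium is cleared. The bred mice had been mated at 8 weeks of age and were thus older than the nulliparous mice when their glands were taken. The paper describes RNA of low passage cultures, purified on columns, whereas the sample labels name Trizol and a digested stromal fraction. The labels call the arrays of a stage biological replicates but do not tie them to single mice, and the tests therefore measure the variation among 9 preparations, part of which may be technical. The values are log2 signals, normalized across arrays by the authors, so that a difference of 1 is a doubling, and array medians lay between 5.928 and 6.005. A bulk preparation cannot tell fewer cells of a type from less RNA per cell.

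Markers of cell types varied between preparations as well as between stages. Among adipocyte genes, Adipoq had log2 signals of 3.82 to 4.41, Lep of 3.88 to 4.31 and Fabp4 of 7.50 to 8.45. The matrix gene Col1a1 lay between 12.63 and 13.36 and the progenitor gene Pdgfra between 8.86 and 11.44, and as each probe set has its own brightness these levels are not compared with each other. The 9 measured adipocyte markers averaged 5.733 to 6.003 in every array. In ASC-Ls against ASC-Ns 1 of them rose past the threshold given below (Slc2a4, a glucose transporter), next to 0.171% of all genes. In the same comparison 1 fell (Pparg, a regulator of fat cell formation, from a mean of 7.90 to 6.94), next to 0.457%. Pparg fell past the threshold in ASC-Is too, to a mean of 7.06, next to 0.181% of genes. Of 13 progenitor and fibroblast markers 1 fell past it in ASC-Ls against ASC-Ns, Pdgfra, at -1.22, next to 0.457% of all genes. Its ASC-L arrays read 8.86, 10.60 and 10.65 from low to high, with an SD of 1.02. The replicate 2 arrays of lactation and involution carried the highest epithelial signal, with means of 8.85 and 7.55 over 15 luminal markers. The luminal means were 6.93, 6.89 and 5.88 in ASC-N replicates 1, 2 and 3, and 5.99 to 6.24 in the remaining arrays of bred mice. Fits without both arrays of high epithelial signal thus kept ASC-N replicates 1 and 2, whose luminal means exceeded those of the remaining arrays. The 16 macrophage markers averaged 6.23 to 8.26 in ASC-Ns, 6.61 to 6.80 in ASC-Ls and 7.35 to 8.93 in ASC-Is. In ASC-Ls against ASC-Is 10 of them fell past the threshold, next to 0.406% of all genes. Against ASC-Ns 1 did, next to 0.457%. Signals of arrays of the same stage correlated across genes at r = 0.956 to 0.990.

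Lipg, which encodes endothelial lipase and lies at chr18:74939322-74961263 of the mouse assembly GRCm38.p6, separated lactation from both other stages. It was not a bright gene, and ranked between percentiles 28.3 and 50.9 of the genes of an array. Its log2 signal was 5.34, 5.81 and 5.01 in ASC-N replicates 1, 2 and 3. The same replicates read 6.23, 6.33 and 6.21 in ASC-Ls and 5.24, 5.94 and 5.53 in ASC-Is. Every ASC-L array thus lay above every other array, with 0.27 between the lowest ASC-L and the highest of the rest, while ASC-Ns and ASC-Is overlapped. In each stage replicate 2 had the highest Lipg signal, an order that 12.6% of all genes shared, and in lactation and involution this was the array of high epithelial signal. The 3 ASC-L arrays were also close together, at a mean of 6.26 ± 0.068 (SD, n = 3) against 5.39 ± 0.40 in ASC-Ns and 5.57 ± 0.35 in ASC-Is. The ASC-L mean of Lipg was 1.82 times that of ASC-Ns, a log2 difference of 0.87 with a standard error (SE) of 0.23. It was 1.61 times that of ASC-Is (0.69, SE 0.23), whereas ASC-Is and ASC-Ns differed by 0.18 (SE 0.23).

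Throughout, a gene is said to pass the threshold at an unadjusted p under 0.05 and a change of at least 1.5-fold, the limits of the study's own gene lists. Lipg was the member past it, in ASC-Ls against ASC-Ns, where 0.627% of all genes passed (0.171% higher and 0.457% lower), and in ASC-Ls against ASC-Is, where 0.482% did (0.0753% higher and 0.406% lower). No member passed it in ASC-Is against ASC-Ns, where 0.251% of genes did (0.0702% higher and 0.181% lower). As the members were chosen with these contrasts known, nothing is read from that count. These comparisons share arrays and do not stand apart from each other. No gene of the array reached an adjusted p under 0.05 in any of them (limma with Benjamini-Hochberg adjustment), while 726, 359 and 311 genes had an unadjusted p under 0.05 in ASC-Ls against ASC-Ns, ASC-Ls against ASC-Is and ASC-Is against ASC-Ns. Without replicate 1 of involution, the lowest ASC-I array for Lipg, the difference between ASC-Ls and ASC-Is was 0.52 and no longer past the threshold.

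The Lipg signal is set here beside the cell type markers of the same arrays, whose part in it was not tested. Of 14 endothelial markers, the ASC-L mean exceeded the ASC-N mean for 13 and the ASC-I mean for 13, next to 51.7% and 52% of all genes. The median differences of the list were 0.21 and 0.27. Only Flt1, a receptor for vascular growth factors, rose past the threshold, against ASC-Ns, next to 0.171% of all genes. The mean over these markers was 6.88, 5.68 and 5.62 in ASC-N replicates 1, 2 and 3, 5.81, 7.24 and 5.95 in ASC-Ls, and 5.70, 6.73 and 5.81 in ASC-Is. In ASC-Ls and ASC-Is the highest endothelial mean and the highest Lipg signal fell in the same array, replicate 2, whereas in ASC-Ns the first was in replicate 1 and the second in replicate 2. The ASC-L mean of all 15 luminal markers exceeded that of ASC-Ns, next to 51.7% of all genes. Elf3 (0.61) and F11r (0.89) rose past the threshold there, next to 0.171%. Every ASC-L array of Elf3 lay above all other arrays, whereas F11r overlapped. Luminal means were 6.16, 8.85 and 6.24 in ASC-L replicates 1, 2 and 3, 5.88 to 6.93 in ASC-Ns and 5.99 to 7.55 in ASC-Is. Milk gene means were 5.115, 6.547 and 5.285 in the same ASC-L arrays, 5.043 to 5.108 in ASC-Ns and 5.075 to 5.809 in ASC-Is. Against ASC-Ns, the ASC-L mean was larger for 7 of 9 milk genes, and Wap passed the threshold (0.81). With replicate 2 of lactation and of involution left out and all ASC-N arrays kept, Lipg in ASC-Ls exceeded both ASC-Ns and ASC-Is by 0.83. The ASC-L mean was the lowest of the 3 stages for each of the 16 macrophage markers, whose ranges by stage are given above.

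**Figure D1:**
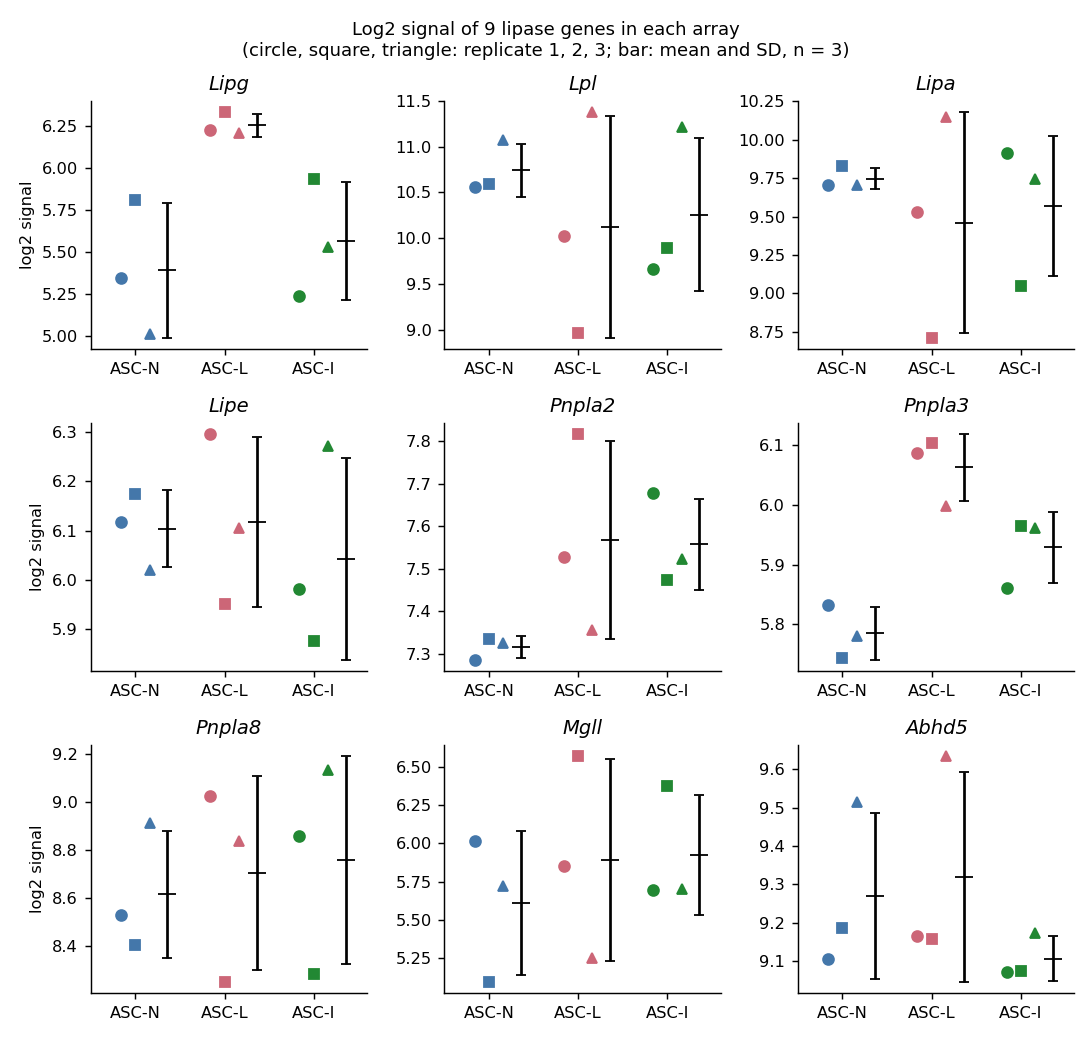
Log2 signal (y axis, own scale per gene) of the 9 measured lipase genes in each array by stage (x axis), with circle, square and triangle for replicates 1, 2 and 3 and bars for the mean and SD of 3 arrays. The Lipg points of ASC-Ls, from 6.21 to 6.33, all lie above the other 6, and both Pnpla2 and Pnpla3 have their 3 lowest arrays in ASC-Ns.

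Lpl, the gene of lipoprotein lipase, varied more between preparations than between stages. It read 10.56, 10.59 and 11.07 in ASC-Ns, 10.02, 8.97 and 11.38 in ASC-Ls, and 9.67, 9.90 and 11.21 in ASC-Is. The highest and the lowest of all 9 arrays were thus both ASC-Ls, and the range of 2.41 was wider than that of 97.4% of genes. Relative to ASC-Ns, Lpl differed by -0.62 in ASC-Ls and by -0.48 in ASC-Is (SE 0.59 for each), and ASC-Ls and ASC-Is differed by -0.14. The size of the Lpl difference between ASC-Ls and ASC-Ns depended on which ASC-L array was left out. It was -0.04 without replicate 2 of lactation, the array of high epithelial signal, and -1.25, past the threshold, without replicate 3. In each stage the highest Lpl signal was that of replicate 3, an order that 7.96% of all genes shared.

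Pnpla2 encodes adipose triglyceride lipase, the enzyme of the first step of lipolysis, and was slightly higher in both stages after pregnancy than in nulliparous glands. Its signal was 7.29, 7.34 and 7.32 in ASC-Ns, among which it spanned 0.050. It was 7.53, 7.82 and 7.36 in ASC-Ls and 7.68, 7.47 and 7.52 in ASC-Is. All 6 arrays of bred mice therefore lay above the 3 ASC-N arrays, although the lowest ASC-L array cleared the highest ASC-N array by only 0.021. The difference was 0.25 (SE 0.13, 1.19-fold) for ASC-Ls and 0.24 (SE 0.13, 1.18-fold) for ASC-Is, both short of 1.5-fold. ASC-Ls and ASC-Is overlapped, with a difference of 0.0093 (SE 0.13). Without the high epithelial array of lactation, replicate 2, which had the highest Pnpla2 value, the excess of ASC-Ls over ASC-Ns was 0.13.

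The later steps of the cascade did not separate the stages. Lipe, which encodes hormone-sensitive lipase, read 6.12, 6.17 and 6.02 in ASC-Ns, 6.30, 5.95 and 6.11 in ASC-Ls, and 5.98, 5.88 and 6.27 in ASC-Is. The arrays of all stages overlapped, and the mean of ASC-Ls was 0.013 above that of ASC-Ns (SE 0.14) and 0.074 above that of ASC-Is (SE 0.14). Mgll, whose product, monoacylglycerol lipase, splits the last ester bond, read 6.02, 5.10 and 5.72 in ASC-Ns, 5.85, 6.57 and 5.25 in ASC-Ls, and 5.69, 6.38 and 5.70 in ASC-Is. Its highest arrays were the replicate 2 arrays of lactation and involution, those of high epithelial signal. The Mgll means of ASC-Ls and ASC-Is exceeded that of ASC-Ns by 0.28 and 0.31 (SE 0.36 for each), and without replicate 2 of lactation the difference between ASC-Ls and ASC-Ns was -0.062. Whether the epithelial signal had a part in the Mgll values was not tested.

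Abhd5, whose product binds and activates the enzyme encoded by Pnpla2, read 9.11, 9.19 and 9.52 in ASC-Ns, 9.17, 9.16 and 9.63 in ASC-Ls, and 9.07, 9.08 and 9.17 in ASC-Is. The ASC-I arrays were at the low end, but their highest overlapped the other stages. The Abhd5 differences were 0.050 for ASC-Ls against ASC-Ns, -0.16 for ASC-Is against ASC-Ns and 0.21 for ASC-Ls against ASC-Is (SE 0.16 for each).

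Pnpla3, which encodes adiponutrin, a patatin-like relative of the Pnpla2 product found on lipid droplets, showed small differences and tight replicates. It read 5.83, 5.74 and 5.78 in ASC-Ns, 6.09, 6.10 and 5.999 in ASC-Ls, and 5.86, 5.96 and 5.96 in ASC-Is. No stage overlapped another, in the order ASC-L, ASC-I and ASC-N from high to low, with gaps of 0.034 between ASC-Ls and ASC-Is and 0.029 between ASC-Is and ASC-Ns. The Pnpla3 difference was 0.28 (SE 0.10, 1.21-fold) for ASC-Ls against ASC-Ns, 0.14 (SE 0.10) for ASC-Is against ASC-Ns and 0.13 (SE 0.10) for ASC-Ls against ASC-Is. None reached 1.5-fold. Its variance over the 9 arrays was 0.0166 and that of Pnpla2 0.0317, so that both genes fell below the variance of 0.05 under which flat genes were dropped in an alternative fit.

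Pnpla2 and Pnpla3 were the members whose ASC-L and ASC-I arrays all exceeded every ASC-N array, a pattern found in 233 genes, or 1.17% of those measured. As the members were chosen with these contrasts known, nothing is read from that share either. The stretch just upstream of both genes is shown because they had this pattern in common. The 250 bases before the start that the RefSeq promoter table uses for each gene are given on the plus strand of GRCm38.p6, the sequence of the C57BL/6J strain, at chr7:141454938-141455187 and at chr15:84167566-84167815. RefSeq annotates an earlier start for Pnpla3 as a whole, at position 84167776, so that the last 40 bases of its stretch lie inside the annotated gene. Of the 10 genes, 8 had an entry in the promoter table. The sequences are written 5′ to 3′, with matches to the motifs searched in capitals.
Pnpla2: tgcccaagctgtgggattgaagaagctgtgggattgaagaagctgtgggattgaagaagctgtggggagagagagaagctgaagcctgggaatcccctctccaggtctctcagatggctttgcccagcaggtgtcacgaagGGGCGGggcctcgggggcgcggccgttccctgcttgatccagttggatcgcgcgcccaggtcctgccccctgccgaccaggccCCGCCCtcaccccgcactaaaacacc
Pnpla3: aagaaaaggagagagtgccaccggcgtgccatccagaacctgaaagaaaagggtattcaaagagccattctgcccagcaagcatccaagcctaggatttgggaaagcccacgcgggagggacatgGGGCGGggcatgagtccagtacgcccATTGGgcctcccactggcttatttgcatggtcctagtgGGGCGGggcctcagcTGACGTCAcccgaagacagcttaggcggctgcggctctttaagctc
Both stretches held 2 GC boxes (GGGCGG, on either strand), as motifs bound by Sp1 are called, starting at positions -109 and -26 of Pnpla2 and -125 and -61 of Pnpla3, where -1 is the base before the start in the promoter table. A GC box is common and occurs in 32.7% of the 32851 promoters of the table over the same 250 bases. The cyclic AMP response element TGACGTCA, the motif of the CREB factors, occurred at position -46 of Pnpla3, across its annotated gene start, and in 1.55% of promoters, and was not found in the Pnpla2 window. A CCAAT box (CCAAT) was present at position -99 of Pnpla3 on the minus strand and in 33.8% of promoters. The E-box CACGTG and the FoxO core TGTTTAC were in neither window, against 6.02% and 3.17% of promoters. Each motif was searched on both strands, the motifs were picked after the sequences had been read, and no match overlapped another. A match is no evidence that a factor binds there.

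Pnpla8 encodes a mitochondrial and peroxisomal phospholipase, and its signal was 8.53, 8.41 and 8.91 in ASC-Ns, 9.03, 8.25 and 8.84 in ASC-Ls, and 8.86, 8.28 and 9.13 in ASC-Is. In each stage replicate 2 was the lowest, as for 11.6% of all genes. The stages overlapped, and ASC-Ls and ASC-Is exceeded ASC-Ns by 0.089 and 0.14 (SE 0.27 for each).

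Lipa, the gene of lysosomal acid lipase, read 9.71, 9.83 and 9.70 in ASC-Ns, 9.53, 8.71 and 10.15 in ASC-Ls, and 9.91, 9.05 and 9.74 in ASC-Is. Both arrays of high epithelial signal were low, and the ASC-Ls spread on both sides of the ASC-Ns. Lipa differed by -0.29 between ASC-Ls and ASC-Ns and by -0.18 between ASC-Is and ASC-Ns (SE 0.34 for each). With both of those arrays left out and all ASC-N arrays kept, these differences were 0.089 and 0.083. The sign of the Lipa differences thus rested on both arrays of high epithelial signal.

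**Figure D2:**
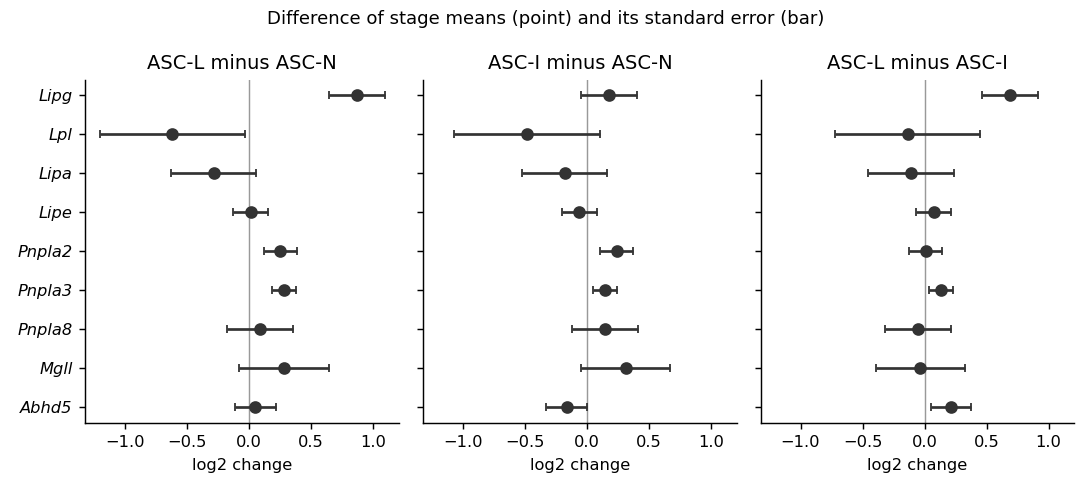
Difference of stage means on the log2 scale (x axis) for the 9 lipase genes (y axis) in the 3 comparisons, with points for the difference and bars for its standard error. Lipg lies furthest from 0 in both comparisons of ASC-Ls, at 0.87 and 0.69, and Lpl has the widest bars, with an SE of 0.59.

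The group as a whole did not move in a single direction. The median difference of the 9 genes was 0.089 between ASC-Ls and ASC-Ns, 0.14 between ASC-Is and ASC-Ns and 0.0093 between ASC-Ls and ASC-Is, next to medians of 0.0067, 0.0031 and 0.0078 over all genes. In these comparisons 7, 5 and 5 of the 9 genes had the higher mean in the first named stage, next to 51.7%, 50.9% and 52% of all genes. Arrays lay entirely above those of the other stage for 3 members in ASC-Ls against ASC-Ns (Lipg, Pnpla2 and Pnpla3), where 4.89% of all genes did. They did so for 2 in ASC-Is against ASC-Ns (Pnpla2 and Pnpla3, next to 3.89% of genes) and for 2 in ASC-Ls against ASC-Is (Lipg and Pnpla3, next to 2.96%). No member lay entirely below in any comparison, next to 3.7%, 2.65% and 2.6% of genes. Lipg and Pnpla3 were also the members whose ASC-L arrays exceeded all other 6 arrays, as held for 214 genes (1.07%).

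**Figure D3:**
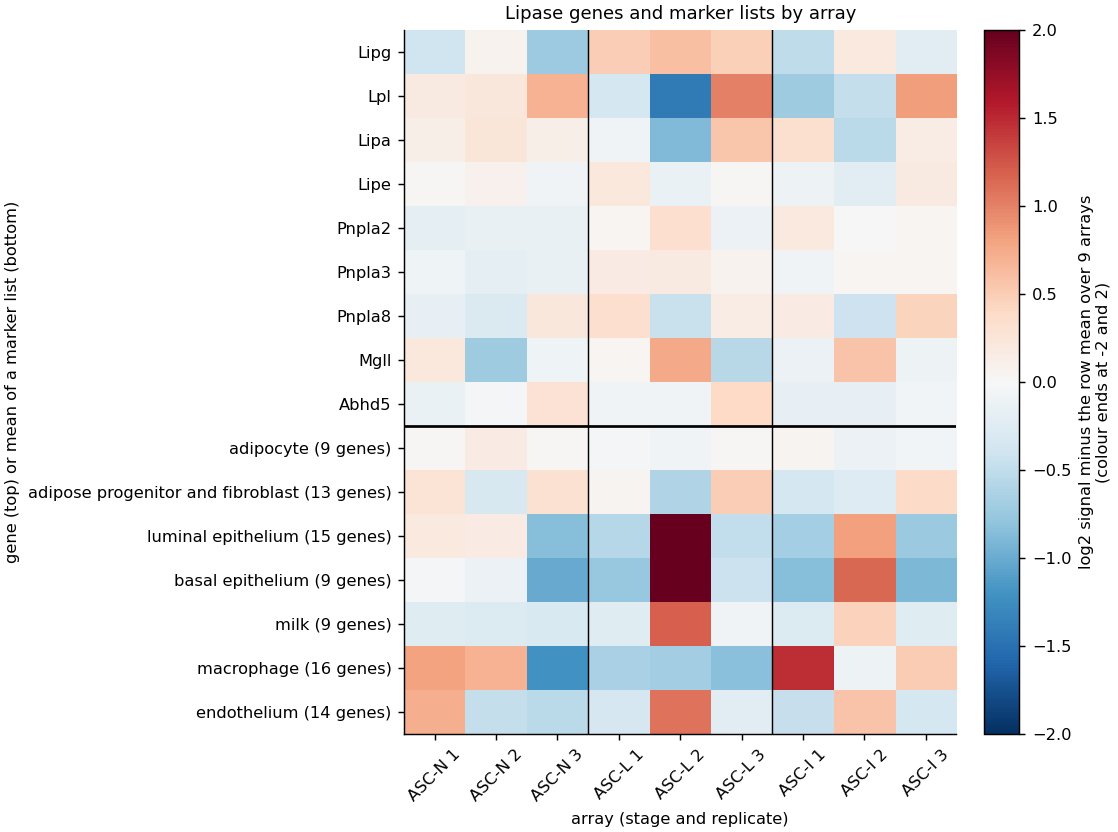
Log2 signal minus the mean of its row over 9 arrays (colour, red for above and blue for below, ending at -2 and 2) for the 9 lipase genes and for the means of 7 cell type marker lists (rows) in each array (columns). ASC-L 2 and ASC-I 2 stand out for epithelial markers, with luminal means of 8.85 and 7.55, while Lipg is red in all 3 ASC-L columns.

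Genes that work with the lipases were then examined. Of 97 such genes in 5 lists, 85 were measured, and these were tested. The lists, like the lipases, were chosen with earlier results of these data known, which limits what the tests can show. None rose or fell past the threshold in ASC-Ls against ASC-Ns or in ASC-Is against ASC-Ns, and 1 fell in ASC-Ls against ASC-Is, next to 0.406% of all genes that fell there. An unadjusted p under 0.05 was found for 2, 2 and 1 of the 85 genes in ASC-Ls against ASC-Ns, ASC-Is against ASC-Ns and ASC-Ls against ASC-Is, next to 3.64%, 1.56% and 1.8% of all genes (limma). The lowest adjusted p among the 85 genes was 0.998 in ASC-Ls against ASC-Ns.

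The gene that fell was Hilpda, whose product binds the lipid droplet and inhibits the Pnpla2 enzyme. It read 6.41, 6.11 and 6.60 in ASC-Ns, 6.36, 6.25 and 6.09 in ASC-Ls, and 7.03, 6.95 and 6.59 in ASC-Is. Every ASC-L array was below every ASC-I array, and ASC-Ns overlapped both. From ASC-Is to ASC-Ls the Hilpda signal was lower by a factor of 1.55, a log2 difference of -0.63 (SE 0.17, adjusted p = 1.00, limma). ASC-Is exceeded ASC-Ns by 0.49 (SE 0.17), short of 1.5-fold, and by 0.62 and 0.60, past the threshold, without replicate 3 of involution or replicate 3 of the nulliparous arrays. The fall was no longer past 1.5-fold without replicate 1 or 2 of involution (-0.54 and -0.58) or replicate 3 of lactation (-0.56), and adjusted p-values over all alternatives ranged from 0.962 to 1.00. In ASC-Ls against ASC-Is 10 of 16 macrophage markers fell, next to 0.406% of all genes, and their part in the Hilpda values was not tested.

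The other proteins of the droplet coat gave no calls. The median difference of the 15 droplet genes was -0.088 between ASC-Ls and ASC-Ns, with 5 of 15 higher. Extremes were Bscl2, the seipin gene needed for droplet formation, at -0.32, and Plin2, a coat protein of droplets in many cell types, at 0.52 (SE 0.55).

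Hormone control of lipolysis was measured by 13 of 19 genes, which include natriuretic peptide receptors, adenylyl cyclases and subunits of the cyclic AMP dependent kinase that phosphorylates the Lipe enzyme. The adrenergic receptors had no probe set under a single symbol in the annotation used and were not analysed here. None passed the threshold in any comparison, and the median difference was -0.0014 between ASC-Ls and ASC-Ns. The kinase subunit Prkar2b averaged 9.71 ± 0.15 in ASC-Ns, 9.15 ± 1.09 in ASC-Ls and 9.71 ± 0.72 in ASC-Is. Its spread in ASC-Ls, from 8.09 to 10.26, covered that of ASC-Ns. Hcar2, a receptor for nicotinic acid and ketone bodies that restrains lipolysis, averaged 5.13 ± 0.37, 5.63 ± 0.72 and 5.32 ± 0.23.

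Maturation and control of the secreted lipases was represented by 18 of 21 genes, again with no call, and between ASC-Ls and ASC-Ns the difference was above 0 for 9 and below 0 for 9. Pcsk6, a proprotein convertase of the family that cleaves Lpl and Lipg proteins, averaged 7.03 ± 0.055 in ASC-Ns, 6.55 ± 0.59 in ASC-Ls and 6.45 ± 0.40 in ASC-Is. Cd36, which takes up fatty acids that Lpl releases, ranged from 5.07 to 8.68 within ASC-Ls and averaged 7.20 ± 1.47, 6.79 ± 1.81 and 7.60 ± 1.42 in the 3 stages. Angptl4, an inhibitor of Lpl, differed by 0.32 between ASC-Ls and ASC-Ns (SE 0.70).

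Among other lipases, 25 of 27 were measured and none passed the threshold. Ddhd1, a phospholipase, averaged 7.03 ± 0.21 in ASC-Ns, 7.49 ± 0.61 in ASC-Ls and 7.02 ± 0.24 in ASC-Is, and its highest array, 8.19, was ASC-L replicate 2. Ces1d, a carboxylesterase, averaged 3.97 ± 0.23, 4.40 ± 0.33 and 4.24 ± 0.075, a difference of 0.44 between ASC-Ls and ASC-Ns (SE 0.18, adjusted p = 0.998, limma). Its neighbour in the family, Ces1f, was singled out after its values were seen. It read 3.59, 3.75 and 3.77 in ASC-Ns, 4.11, 4.17 and 4.11 in ASC-Ls, and 3.91, 4.09 and 3.97 in ASC-Is. Its stages did not overlap and had the same order as those of Pnpla3. Every ASC-L array thus exceeded all others, as held for 1.07% of all genes. Ces1f differed by 0.43 between ASC-Ls and ASC-Ns (SE 0.10, adjusted p = 0.998, limma), which is 1.34-fold and under the threshold. Both belong to a cluster of closely similar genes, so that their probe sets may share signal. Both also gave low signals. Of the genes that work with the lipases, they were the 2 with an unadjusted p under 0.05 in ASC-Ls against ASC-Ns (limma). With the dimmest 25% of genes left out no such gene remained. As this filter removes genes of low signal such as these, that outcome says nothing further about the other genes.

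Lysosomal lipid handling was measured by 14 of 15 genes, with none past the threshold and a median difference of -0.056 between ASC-Ls and ASC-Ns. Gla, a lysosomal galactosidase, averaged 9.11 ± 0.51 in ASC-Ns, 9.45 ± 1.25 in ASC-Ls and 8.97 ± 0.30 in ASC-Is, and 1 ASC-L array, at 10.87, lay above all others. Ctsd, a lysosomal protease, averaged 12.05 ± 0.23, 11.79 ± 0.43 and 12.06 ± 0.33.

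**Figure D4:**
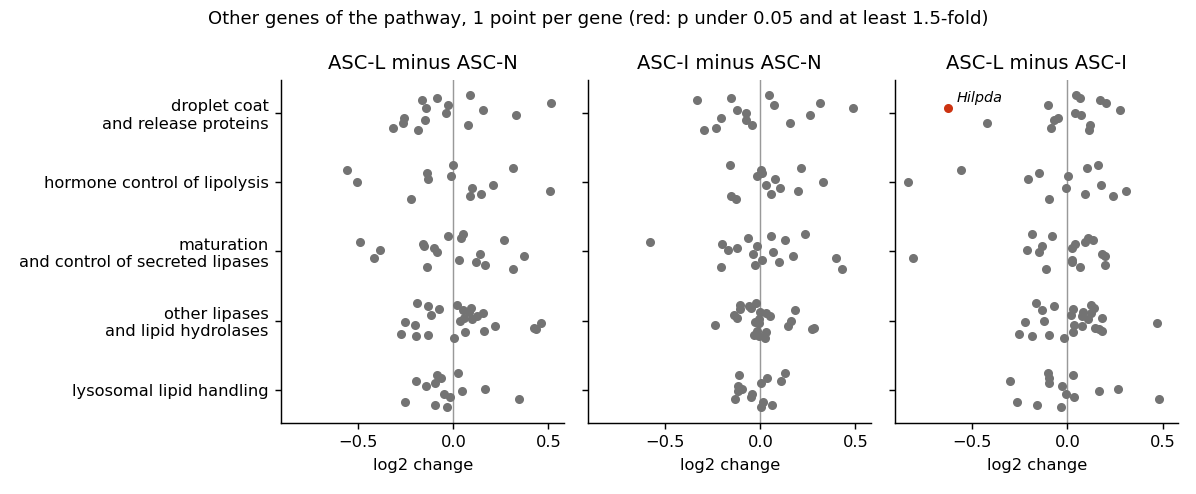
Difference of stage means on the log2 scale (x axis) for the 85 measured genes that work with the lipases, 1 point per gene, by list (y axis) in the 3 comparisons. The 1 red point is Hilpda, at -0.63 in ASC-Ls against ASC-Is, which alone passed the threshold.

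The genes of closest profile were found as those with the smallest root mean square (RMS) difference from Lipg or Pnpla2 over the 9 arrays, after each gene's own mean had been subtracted. This is a description of 9 arrays, and genes that share no more than a noisy or a flat profile can also lie close. The 5 genes nearest Lipg were Bdh1, an enzyme of ketone body metabolism, at an RMS difference of 0.21, and Nexmif, Jph1, 2410018L13Rik and Xkrx, at 0.25, 0.25, 0.25 and 0.26. The median gene lay at 0.49, and Lipg itself varied by 0.45 around its mean. Bdh1 averaged 5.70 ± 0.26 in ASC-Ns, 6.11 ± 0.12 in ASC-Ls and 5.58 ± 0.35 in ASC-Is. Its lowest ASC-L array, 6.03, was just above the highest of the others, 5.99. The 5 genes nearest Pnpla2 were Trim10, Cobl, Ctsq, Zfp362 and Acot12, at RMS differences of 0.047, 0.054, 0.066, 0.066 and 0.069, next to 0.25 for the median gene. Trim10, the nearest, averaged 4.61 ± 0.025 in ASC-Ns, 4.83 ± 0.21 in ASC-Ls and 4.83 ± 0.082 in ASC-Is, and like Pnpla2 it was highest in ASC-L replicate 2. No other lipase of the group was among the 5 nearest of either gene.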

How the data were processed

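RNA of 9 ASC preparations was hybridized to Affymetrix Mouse Gene 1.0 ST arrays. The deposited log2 values were made by the authors, with robust multi-array average in the paper's methods and with GCRMA and limma in the submitters' processing notes, which name no versions. They were used without further normalization. Slide and scan date were not used here. Precision is limited by the number of arrays.

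Of 28348 probe sets, 21762 had 1 gene symbol, 1621 several and 4965 none in the annotation used. RefSeq entries were found by Entrez identifier for 21671 of the probe sets with 1 symbol, and 0 symbols changed. Probe sets with 1 symbol were averaged per gene to 19930 genes. Linear models were fitted in limma 3.58.1 under R 4.3.3 with a mean per stage over all 9 arrays and empirical Bayes moderation, and were tested on simulated data. The threshold was an unadjusted p under 0.05 with at least 1.5-fold, and p-values were adjusted by the Benjamini-Hochberg method over 19930 genes. The SE is the moderated SE.

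The lipase genes, the 5 lists of related genes and the 7 marker lists were chosen with earlier results of these data known. Named genes were the 10 lipases, each gene of a list past the threshold in any comparison, otherwise the 2 of that list with the largest difference between ASC-Ls and ASC-Ns, and the 5 closest profiles of Lipg and Pnpla2. Slc2a4, Pparg, Flt1, Adipoq, Lep, Fabp4, Col1a1, Pdgfra, Elf3, F11r, Wap, Bscl2, Plin2, Angptl4, Npr3 and Ces1f were named beside this rule.

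Replicate numbers are shared between stages, with no pairing stated. Deviations from stage means of arrays of the same number correlated across genes at r = 0.47, 0.73 and 0.46 between lactation and involution. The values were -0.08, 0.40 and 0.45 between lactation and nulliparous arrays and 0.07, 0.43 and 0.50 between involution and nulliparous arrays, where 1 pair in each stayed under 0.1. The pair at 0.73 was that of both arrays of high epithelial signal, and arrays of different numbers were not correlated for reference. These values therefore do not settle whether the numbers pair ASC-Ls with ASC-Is, and the main fit used no block. Alternatives were quantile normalization, removal of the dimmest 25% of genes or of genes with a variance under 0.05, single probe sets, a robust prior with an intensity trend, fits to only the 2 stages compared, the replicate number as a block, and omission of each array or of both arrays of high epithelial signal.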

Additional observations from a re-analysis of the deposited data

How the results depend on the processing

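The differences of the 9 lipase genes moved by less than the SD between replicates under the alternatives run, with 1 exception next to 446 other values. Without both arrays of high epithelial signal, Pnpla2 was -0.16 in ASC-Ls against ASC-Is. That tally is no measure of stability. Leaving out 1 array cannot move a difference beyond this SD, and most other alternatives leave it unchanged. With single arrays left out, the differences of Lipa, Lipe, Pnpla8, Mgll and Abhd5 changed sign in ASC-Ls against ASC-Ns. Those of Lipg, Lpl, Pnpla2 and Pnpla3 kept theirs. Leaving out each array in turn gave 0.68 to 1.08 for Lipg in ASC-Ls against ASC-Ns, -0.01 to 0.39 in ASC-Is against ASC-Ns and 0.52 to 0.87 in ASC-Ls against ASC-Is. For Pnpla2 the ranges were 0.13 to 0.36, 0.18 to 0.28 and -0.12 to 0.11. With genes of low variance left out, 7343 genes remained and Pnpla2, Pnpla3, Lipe and Abhd5 had no value.

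Counts over all genes depended on single arrays. With all arrays, 125, 50 and 96 genes passed the threshold in ASC-Ls against ASC-Ns, ASC-Is against ASC-Ns and ASC-Ls against ASC-Is, and with 1 array left out these counts were 80 to 404, 32 to 221 and 36 to 331. The first of these was 80, 352, 404 and 230 without nulliparous replicate 1 or 3 or lactation replicate 1 or 3. The next was 32, 221, 83 and 92 without nulliparous replicate 1 or 3 or involution replicate 2 or 3. The last was 331, 36, 316 and 61 without lactation replicate 1 or involution replicate 1, 2 or 3. The replicate block gave 295, 90 and 207 genes. In ASC-Ls against ASC-Is, the comparison with the 207 (1.04%), Lipg and Hilpda remained past the threshold. Without both arrays of high epithelial signal, 144 genes passed in ASC-Is against ASC-Ns and 194 (0.973%) in ASC-Ls against ASC-Is. Among the 194 were 2 of the 85 genes that work with the lipases (Hilpda and Npr3). Of those 85 genes, 0 to 3, 0 to 2 and 0 to 5 passed with 1 array left out. The 3 in ASC-Ls against ASC-Ns (Hcar2, Pcsk6 and Prkar2b) and the 5 in ASC-Ls against ASC-Is were found without lactation replicate 1. In that fit 2.03% and 1.66% of all genes passed. The 2 in ASC-Is against ASC-Ns were found without involution replicate 3, where 0.462% of all genes passed. The causes were not tested.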
